A study of Homo sapiens with 12 samples.

Results

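The proteasome subunits and regulators are the genes with symbols from PSMA to PSMG followed by a number, chosen by symbol from the human RefSeq list without pseudogenes and antisense genes. RefSeq held 48 such genes, and 42 of them were measured, among 19775 genes in all. PSMA6 and PSME2 had only probe sets shared with another gene, and PSMB11, PSMC5, PSMD7 and PSMD13 were not analysed here. The measured members were 14 subunits of the core (7 of the alpha ring and 7 constitutive ones of the beta ring), 14 subunits of the cap (8 of its base and 6 of its lid), 3 immunoproteasome subunits, 4 other activators or inhibitors and 7 assembly chaperones. The values came from U937, a human leukemia line that grows in suspension and resembles monocyte precursors. Cultures received DMSO, the vehicle, or JS-K for 90 min, 4 h or 24 h, with 3 biological replicates in each of the 4 groups. JS-K is a diazeniumdiolate prodrug that releases nitric oxide inside cells. Neither its dose nor the exposure time of the vehicle cultures is given in the labels, and since 1 vehicle group served all times, JS-K and time in culture cannot be told apart.

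The proteasome degrades proteins tagged with ubiquitin. Its barrel-shaped core encloses the proteolytic sites of the beta ring, and the cap binds ubiquitin chains, removes them and unfolds the substrate with a ring of ATPases. In blood cells and after interferon, 3 immunoproteasome subunits can replace their constitutive counterparts and alter the peptides made for presentation on class I molecules. Dedicated chaperones assemble core and cap and are not part of the finished particle. When proteasome activity is low, the transcription factor NFE2L1 is known to raise the transcription of subunit genes together through antioxidant response elements.

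All values are log2 array signals as deposited, so a difference of 1 is a 2-fold change, and differences are given with their standard error (SE) from the fit. Of the 42 members, 41 had a mean over the 12 arrays well above 4, the level used to mark low signal. The exception was PSMA8, a testis subunit, at a mean of 3.24. Replicates were close, with a median group standard deviation (SD) of 0.09 among the members. The labels call the samples biological replicates without naming separate cultures, so p-values here reflect how these samples vary, which may be technical. In a bulk measurement, fewer cells with a transcript and less of it per cell cannot be told apart.

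Of 8 measured myeloid markers, 6 lay over 4 in vehicle, and MPO and FCGR1A did not; of 9 measured markers of other cell types, COL1A1 alone did, at 5.14. Replicate 2 of the 4 h group stood apart: its array median was 3.10, against 2.84 to 2.99 on the other 11 arrays, and it was the lowest of the 3 arrays at 4 h for 38 of the 42 members. The polyadenylated control spikes averaged 3.04 ± 0.05 in vehicle, 3.08 ± 0.06 at 90 min, 7.02 ± 0.15 at 4 h and 8.47 ± 0.05 at 24 h (SD, n = 3 each). The hybridisation spikes averaged 9.96 ± 0.18 in vehicle, 10.03 ± 0.18 at 90 min, 10.21 ± 0.30 at 4 h and 11.70 ± 0.04 at 24 h. The signal of 28S ribosomal RNA averaged 6.59 ± 0.13 in vehicle, 6.37 ± 0.11 at 90 min, 6.45 ± 0.32 at 4 h and 8.03 ± 0.16 at 24 h. The 3′ minus 5′ signal, a sign of RNA integrity, averaged 0.80 ± 0.03 in vehicle, 0.83 ± 0.02 at 90 min, 0.96 ± 0.17 at 4 h (1.15 on replicate 2) and 0.96 ± 0.04 at 24 h for ACTB. For GAPDH it was 0.13 ± 0.01 at 24 h, against 0.005 ± 0.017 in vehicle. The polyadenylated spikes were thus above vehicle at 4 h and 24 h, and the hybridisation spikes, the 28S signal and both 3′ minus 5′ signals were above vehicle on all 3 arrays at 24 h. The part of these measures in the results was not tested.

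The promoters of 36 members were found in RefSeq (assembly GRCh38.p14) and searched over the 250 bases before the start listed for each promoter, on both strands. For PSMA1, PSMC2, PSMD6, PSMG1 and PSMG4 that start lay inside the full span of the gene. The core of the antioxidant response element, TGACNNNGC, occurred in 10 of the 36 (27.8%), against 10.9% of 35116 promoters of all genes. By role, it occurred in 1 of 10 core, 2 of 13 cap, 3 of 7 immunoproteasome, activator and inhibitor, and 4 of 6 assembly promoters. The CCAAT box, whose matches may share letters with the first motif, occurred in 15 of 36 (41.7%), against 32% of all promoters. These are matches of letters and not sites of binding. The promoters of 4 members whose transcripts moved in different ways are shown, with motif matches in capitals on whichever strand they lie. PSMD1 (chr2:231056617-231056866, plus strand) and PSMG4 (chr6:3258697-3258946, plus strand) held neither motif, PSMB9 (chr6:32853942-32854191, plus strand) held 1 of each, and PSMD9 (chr12:121888540-121888789, plus strand) held 2 response element cores.
PSMD1: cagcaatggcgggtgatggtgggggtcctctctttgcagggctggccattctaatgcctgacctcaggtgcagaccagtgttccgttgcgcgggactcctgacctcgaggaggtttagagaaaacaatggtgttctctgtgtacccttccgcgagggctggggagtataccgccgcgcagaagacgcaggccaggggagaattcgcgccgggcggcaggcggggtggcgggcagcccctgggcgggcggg
PSMG4: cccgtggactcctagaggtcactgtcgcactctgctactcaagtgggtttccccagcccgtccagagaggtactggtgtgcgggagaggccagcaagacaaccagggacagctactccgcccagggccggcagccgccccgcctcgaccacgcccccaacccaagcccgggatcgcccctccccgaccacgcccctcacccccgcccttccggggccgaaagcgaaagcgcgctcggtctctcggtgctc
PSMB9: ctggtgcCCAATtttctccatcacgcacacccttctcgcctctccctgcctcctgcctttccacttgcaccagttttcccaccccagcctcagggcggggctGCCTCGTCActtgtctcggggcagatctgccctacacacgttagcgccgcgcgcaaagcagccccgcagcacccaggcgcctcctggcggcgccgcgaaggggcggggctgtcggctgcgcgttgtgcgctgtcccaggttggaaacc
PSMD9: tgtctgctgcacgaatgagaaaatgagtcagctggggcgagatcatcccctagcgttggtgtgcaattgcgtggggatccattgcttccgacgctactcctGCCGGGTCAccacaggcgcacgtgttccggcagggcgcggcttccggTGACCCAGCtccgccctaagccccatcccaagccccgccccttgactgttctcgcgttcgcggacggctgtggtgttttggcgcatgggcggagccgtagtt

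**Figure D1:**
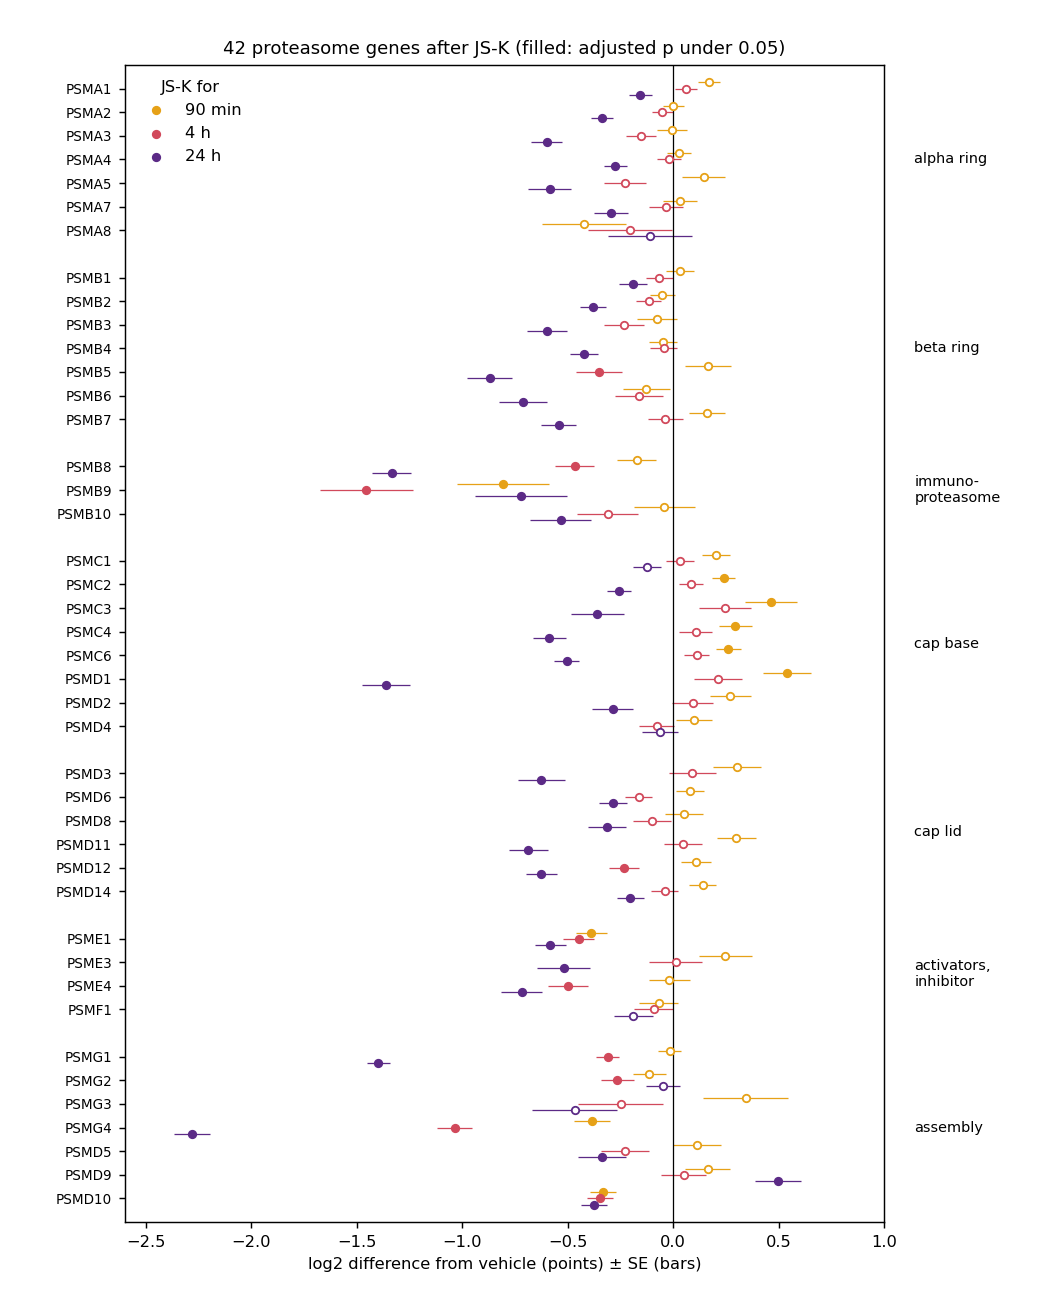
Log2 difference from vehicle (horizontal axis) of each of the 42 members at 90 min, 4 h and 24 h of JS-K, with members grouped by role down the page, bars for the SE and filled points for genes called at an adjusted p under 0.05. At 24 h, 35 members were called lower and 1 was called higher.

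The question of the 24 h comparison is how the machinery stood after a day of JS-K. Transcripts of 35 of the 42 members were lower at 24 h than in vehicle, 1 was higher (PSMD9) and 6 did not pass the test (limma, adjusted p under 0.05 over all genes). The median difference was -0.45, and 41 of 42 members had a negative difference. Of all 19775 genes, 18.9% were called lower and 17.8% higher. This higher share, also used for other lists below, depended on the fit. The number higher was 3518 in the fit reported, 2575 without vehicle replicate 1, 10514 with the 6 arrays compared alone and 11039 with array weights. In the same order, the number lower was 3735, 3456, 4055 and 4486. Among the 9551 genes averaging 4 or more, a comparison set chosen after the values were seen, 37.1% were called lower and 25.9% higher. Against these, 83.3% of the members were called lower and 2.38% higher. The 3 arrays at 24 h all lay below the 3 vehicle arrays for 37 members, against 21.7% of all genes. Most of the changes were modest: 20 members were lower by over 0.5 and 4 at least 2-fold, namely PSMG4, PSMG1, PSMD1 and PSMB8. With each of the 6 arrays of this comparison left out in turn, the number called lower lay between 28 and 30. It was 38 without replicate 2 of the 4 h group, which is not in the comparison but enters the estimate of spread. The 28S, spike and 3′ minus 5′ signals given above were also higher at 24 h than in vehicle.

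In the core, 13 of 14 members fell at 24 h, with a median difference of -0.40. PSMA8, the low testis subunit, was the exception, at -0.11 ± 0.20 (adjusted p = 0.639). PSMB5 carries the chymotrypsin-like site, the main target of proteasome inhibitor drugs. It measured 10.01, 10.06 and 10.15 in vehicle, 10.31, 10.18 and 10.23 at 90 min, 9.97, 9.49 and 9.70 at 4 h, and 9.34, 9.15 and 9.11 at 24 h. Every 24 h array lay below every other array, and the 4 h arrays also lay below vehicle. The difference from vehicle was -0.35 ± 0.11 at 4 h (adjusted p = 0.0338) and -0.87 ± 0.11 at 24 h (adjusted p = 3.18e-05), a 1.83-fold fall. The 4 h call was lost without replicate 2 of that group or without any of the 3 vehicle replicates (adjusted p up to 0.103 over the settings that lost it).

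PSMB6, with the caspase-like site, measured 11.17, 11.12 and 11.22 in vehicle, 10.97, 11.06 and 11.11 at 90 min, 11.26, 10.74 and 11.02 at 4 h, and 10.61, 10.45 and 10.32 at 24 h. PSMB7, with the trypsin-like site, measured 12.20, 12.09 and 12.12 in vehicle, 12.45, 12.21 and 12.23 at 90 min, 12.15, 11.90 and 12.23 at 4 h, and 11.59, 11.59 and 11.60 at 24 h. Both stood apart from vehicle on all 3 arrays at 24 h, by -0.71 ± 0.11 (adjusted p = 0.00024) and -0.54 ± 0.08 (adjusted p = 0.000188), and neither was called earlier. PSMA3, of the alpha ring that gates entry to the core, measured 12.17, 12.14 and 12.14 in vehicle, 12.23, 12.05 and 12.16 at 90 min, 12.09, 11.86 and 12.05 at 4 h, and 11.45, 11.56 and 11.64 at 24 h. It fell by 0.60 ± 0.07 at 24 h (adjusted p = 2.27e-05). The other core members called at 24 h fell by less than PSMA3, down to -0.16 ± 0.05 for PSMA1 (adjusted p = 0.0381). The PSMA1 call was lost under 9 alternatives, among them without any 1 vehicle or 24 h replicate (adjusted p = 0.0612 to 0.239).

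In the cap, 12 of 14 members fell at 24 h, 6 of 8 in the base and 6 of 6 in the lid, with a median of -0.34. PSMD1, the large scaffold of the base, had the largest fall. It measured 9.88, 10.03 and 10.01 in vehicle, 10.67, 10.45 and 10.42 at 90 min, 10.40, 9.90 and 10.25 at 4 h, and 8.67, 8.63 and 8.53 at 24 h. The 24 h arrays lay more than a unit below all others, and the 90 min arrays were the highest. The difference at 24 h was -1.36 ± 0.11 against vehicle (adjusted p = 9.93e-07, a 2.57-fold fall) and -1.57 ± 0.11 against 4 h (adjusted p = 7.38e-07). A second PSMD1 probe set gave -1.36 ± 0.11 at 24 h.

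PSMD11 and PSMD12 are structural subunits of the lid. PSMD11 measured 10.72, 10.61 and 10.69 in vehicle, 10.99, 10.88 and 11.05 at 90 min, 10.87, 10.48 and 10.81 at 4 h, and 10.03, 9.96 and 9.97 at 24 h. PSMD12 measured 10.46, 10.31 and 10.37 in vehicle, 10.56, 10.40 and 10.51 at 90 min, 10.21, 10.02 and 10.21 at 4 h, and 9.76, 9.81 and 9.70 at 24 h. Both were below vehicle on every array at 24 h, by -0.69 ± 0.09 (adjusted p = 5.26e-05) and -0.62 ± 0.07 (adjusted p = 1.7e-05). PSMD14, the deubiquitinase that strips ubiquitin chains from substrates, measured 12.18, 12.05 and 12.13 in vehicle, 12.30, 12.20 and 12.28 at 90 min, 12.15, 11.94 and 12.16 at 4 h, and 11.96, 11.88 and 11.90 at 24 h. It fell by 0.20 ± 0.06 at 24 h (adjusted p = 0.0262), a call lost under 5 alternatives (adjusted p = 0.0726 to 0.111). PSMD4, a receptor for ubiquitin chains, measured 11.73, 11.59 and 11.59 in vehicle, 11.90, 11.66 and 11.64 at 90 min, 11.60, 11.40 and 11.67 at 4 h, and 11.61, 11.55 and 11.56 at 24 h. Its arrays overlapped between the groups at each time, and the 24 h difference was -0.06 ± 0.08 (adjusted p = 0.519).

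**Figure D2:**
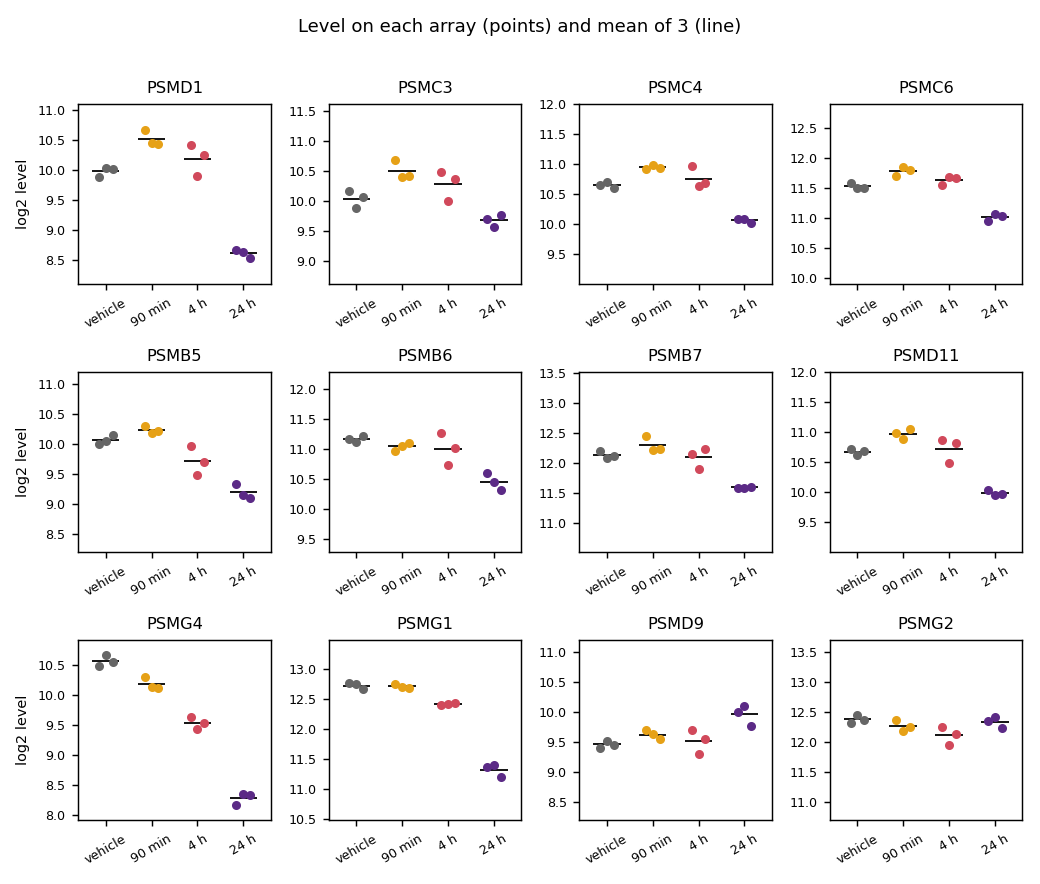
Log2 signal (vertical axis) on each of the 12 arrays, 1 point per array, for 12 members of the cap, core and assembly groups, with the groups vehicle, 90 min, 4 h and 24 h along the horizontal axis and a bar at the group mean. PSMD1 is highest at 90 min and lowest at 24 h, while PSMG4 is lower at each later time.

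The 90 min comparison shows the state soon after JS-K was added. In the fit reported, the cap was the part of the particle with rises: 5 of its 14 members rose and none fell. All 14 differences were positive, with a median of 0.25. The 5 were the ATPases PSMC2, PSMC3, PSMC4 and PSMC6 and the scaffold PSMD1, all of the base. Over all 42 members, 5 rose (11.9%) and 4 fell (9.52%), and 33 did not pass, with a median of 0.07. Of all genes, 4.03% were called higher and 5.62% lower, and among genes averaging 4 or more these shares were 8.05% and 10.5%. No core member was called in the fit reported, with a median of 0.01. Under some alternatives core members were called higher. PSMA1 was under 5 (adjusted p = 0.00227 to 0.0463), and PSMA5 and PSMB7 were under 1 each (adjusted p = 0.00967 and 0.0143). In the lid, PSMD11 was called higher under 7 alternatives, PSMD3 under 4 and PSMD14 under 2.

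PSMD1 rose by 0.54 ± 0.11 at 90 min (adjusted p = 0.00966), and its second probe set differed by 0.53 ± 0.11. Mean signal of PSMC3 was 10.50 at 90 min, against 10.04 in vehicle, a difference of 0.46 ± 0.12 (adjusted p = 0.0333). PSMC4 averaged 10.94 at 90 min, against 10.65 in vehicle, with a difference of 0.30 ± 0.08 (adjusted p = 0.0329). PSMC6 averaged 11.79 at 90 min, against 11.53 in vehicle, and PSMC2 12.46 at 90 min, against 12.22 in vehicle. Their differences were 0.26 ± 0.06 (adjusted p = 0.0153) and 0.24 ± 0.06 (adjusted p = 0.018). Every 90 min array lay above every vehicle array for 15 of the 42 members, these 5 among them. The shares were 12.9% of all genes and 20% of those averaging 4 or more. All 5 were below vehicle at 24 h, though the 24 h call of PSMC3 was lost under 9 alternatives (adjusted p up to 0.139). PSMC1, the remaining ATPase measured, differed by 0.20 ± 0.07 at 90 min (adjusted p = 0.0838) and was called at no time in the fit reported. Under 4 alternatives it was called higher at 90 min (adjusted p = 0.000708 to 0.0224). With the replicate number as a block, PSMD11 of the lid was called too, by 0.30 (adjusted p = 0.0235, against 0.0599 without the block), which made 6 members higher.

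The early rise was sensitive to single libraries. The count of 5 became 4 without vehicle replicate 1, 1 without vehicle replicate 2, 1 without vehicle replicate 3, 2 without 90 min replicate 1, 2 without 90 min replicate 2 and 1 without 90 min replicate 3. It became 10 without replicate 2 of the 4 h group, which is not in the comparison but enters the estimate of spread. PSMD1 was called higher at 90 min under every alternative tried. Calls of the 4 ATPases were each lost under 4 to 7 of the 16 alternatives, with adjusted p from 0.0538 to 0.136 where lost.

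At 4 h, 10 members were lower than vehicle, none was higher and 32 did not pass, with a median of -0.10. Of all genes, 16.6% were called lower and 23.9% higher, and among genes averaging 4 or more the shares were 32.4% and 14.7%, so the members' 23.8% lower was below the share of genes at that level. By role, the calls were 1 of 14 core members (PSMB5), 1 of 14 cap members (PSMD12), 4 of 7 among the immunoproteasome, activators and inhibitor, and 4 of 7 assembly chaperones. Whether roles differed in this was not tested. Without replicate 1 of the 4 h group 19 members were called lower, and without replicate 2, the array that stands apart, 7 were.

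Between successive times, 7 members fell and none rose at 4 h against 90 min, and 25 fell and 2 rose (PSMB9 and PSMD9) at 24 h against 4 h. Of all genes, 7.25% were called lower and 3.33% higher at 4 h against 90 min, and 10.7% lower and 12.8% higher at 24 h against 4 h. Among genes averaging 4 or more the shares were 14.7% lower and 6.42% higher at 4 h against 90 min, and 21.8% lower and 24.7% higher at 24 h against 4 h. The median member difference was -0.18 at 4 h against 90 min and -0.28 at 24 h against 4 h. An F test over all groups called 37 of the 42 members, against 38.1% of all genes and 70.9% of those averaging 4 or more. PSMA8, PSMB1, PSMD4, PSMF1 and PSMG2 were not called by it.

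**Figure D3:**
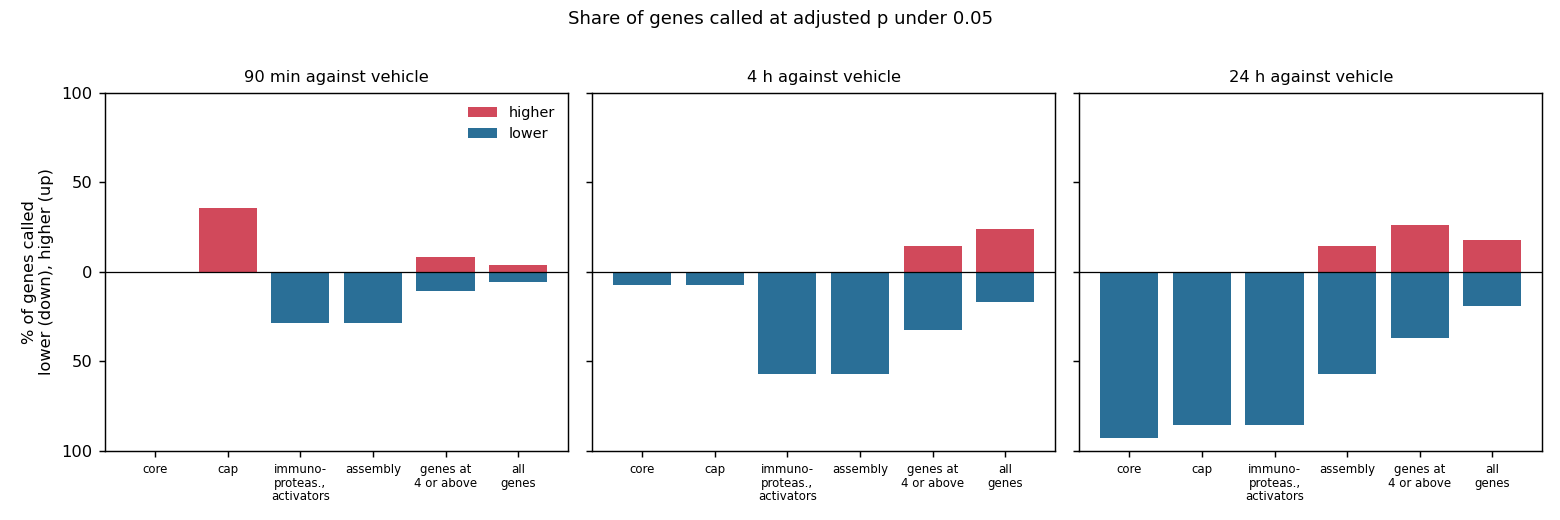
Share of genes called higher (up) and lower (down), in percent of the genes in each set, at 90 min, 4 h and 24 h against vehicle, for the members by role and for genes averaging 4 or more and all genes. The cap has the only bar of members upward at 90 min, and at 24 h each role lies below the line by more than either comparison set.

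The immunoproteasome subunits did not move in step. PSMB8, which replaces PSMB5, measured 10.80, 10.83 and 10.84 in vehicle, 10.73, 10.55 and 10.68 at 90 min, 10.53, 10.11 and 10.43 at 4 h, and 9.53, 9.50 and 9.44 at 24 h. Each later group lay wholly below vehicle, and the 24 h arrays lay below all others. The difference from vehicle was -0.17 ± 0.09 at 90 min (adjusted p = 0.39), -0.47 ± 0.09 at 4 h (adjusted p = 0.00282) and -1.33 ± 0.09 at 24 h (adjusted p = 1.86e-07, a 2.52-fold fall).

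PSMB9, which replaces PSMB6, fell first and partly returned. It measured 8.96, 8.97 and 8.92 in vehicle, 8.26, 7.98 and 8.19 at 90 min, 7.78, 6.80 and 7.90 at 4 h, and 8.30, 8.23 and 8.16 at 24 h. No array of the JS-K groups reached vehicle, and the 4 h arrays were the lowest, with replicate 2 well below the other 4 h arrays. The difference from vehicle was -0.81 ± 0.22 at 90 min (adjusted p = 0.0363), -1.45 ± 0.22 at 4 h (adjusted p = 0.000412) and -0.72 ± 0.22 at 24 h (adjusted p = 0.0213). At 24 h against 4 h PSMB9 rose by 0.73 ± 0.22 (adjusted p = 0.0274). Without replicate 2 of the 4 h group, the 4 h difference was -1.11 (adjusted p = 1.67e-05) and the rise to 24 h was 0.39 (adjusted p = 0.00877). The rise was not called without any 1 of the 24 h replicates (adjusted p = 0.0541 to 0.0814), nor was the 90 min fall without any 1 of the vehicle or 90 min replicates, with adjusted p up to 0.142 over all settings that lost it. The 24 h fall was lost without any 1 vehicle replicate and without 24 h replicate 2 or 3 (adjusted p = 0.0502 to 0.0623).

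PSMB10, which replaces PSMB7, measured 9.04, 8.89 and 9.05 in vehicle, 9.07, 8.86 and 8.93 at 90 min, 8.90, 8.30 and 8.85 at 4 h, and 8.53, 8.27 and 8.59 at 24 h. The 24 h arrays alone were all below vehicle, by -0.53 ± 0.15 (adjusted p = 0.0116). As a description within each array, the signal of each immunoproteasome subunit minus that of its constitutive counterpart changed unequally over time. For PSMB8 and PSMB5 it changed by -0.34 at 90 min, -0.12 at 4 h and -0.46 at 24 h against vehicle. For PSMB9 and PSMB6 the changes were -0.68, -1.29 and -0.01 at the same times, and for PSMB10 and PSMB7 they were -0.20, -0.27 and 0.01. At 24 h, then, the change was near 0 for the pairs of PSMB9 and PSMB10 and was negative for that of PSMB8.

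The activators fell too. PSME1, a subunit of the ring that opens the core in interferon-treated cells, measured 10.78, 10.81 and 10.84 in vehicle, 10.50, 10.35 and 10.42 at 90 min, 10.46, 10.23 and 10.40 at 4 h, and 10.31, 10.26 and 10.12 at 24 h. All JS-K arrays lay below vehicle, by -0.39 ± 0.07 at 90 min (adjusted p = 0.00544), -0.45 ± 0.07 at 4 h (adjusted p = 0.000845) and -0.58 ± 0.07 at 24 h (adjusted p = 3.86e-05). PSME3, a nuclear activator, measured 9.88, 9.77 and 9.87 in vehicle, 9.99, 10.13 and 10.15 at 90 min, 10.10, 9.60 and 9.86 at 4 h, and 9.25, 9.55 and 9.16 at 24 h. It was below vehicle on all arrays at 24 h alone, by -0.52 ± 0.12 (adjusted p = 0.00541).

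PSME4, an activator linked to histone breakdown, measured 9.91, 9.62 and 9.71 in vehicle, 9.86, 9.63 and 9.69 at 90 min, 9.35, 9.10 and 9.30 at 4 h, and 9.05, 9.08 and 8.95 at 24 h. Vehicle and 90 min overlapped, and both later groups lay below them, by -0.50 ± 0.10 at 4 h (adjusted p = 0.00229) and -0.72 ± 0.10 at 24 h (adjusted p = 5.62e-05) against vehicle. PSMF1, named as an inhibitor of the core, measured 10.88 on each vehicle array, 10.89, 10.82 and 10.73 at 90 min, 10.95, 10.54 and 10.88 at 4 h, and 10.62, 10.72 and 10.74 at 24 h. Its 24 h arrays were all below vehicle, but the difference of -0.19 ± 0.09 did not pass (adjusted p = 0.108). Its next brightest probe set was called lower at 24 h, by -0.28 ± 0.07 (adjusted p = 0.00555 over all probe sets).

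The assembly chaperones held both the largest fall and the only rise at 24 h. PSMG4, which pairs with PSMG3 to build the alpha ring, measured 10.49, 10.67 and 10.54 in vehicle, 10.30, 10.13 and 10.11 at 90 min, 9.64, 9.43 and 9.52 at 4 h, and 8.16, 8.35 and 8.34 at 24 h. The groups did not overlap and each later one was lower. The difference from vehicle was -0.39 ± 0.08 at 90 min (adjusted p = 0.0122), -1.04 ± 0.08 at 4 h (adjusted p = 3.81e-06) and -2.28 ± 0.08 at 24 h (adjusted p = 1.23e-09, a 4.86-fold fall). Its 4 other probe sets all had means under 3 and did not show this fall; 1 of them was called higher at 24 h, by 0.21 ± 0.06 (adjusted p = 0.0274 over all probe sets). With the mean of its probe sets in place of the brightest, the 4 h difference was -0.02 (adjusted p = 0.887) and the 90 min difference had an adjusted p of 0.915. The 90 min call was also lost without vehicle replicate 2 and without 90 min replicate 2 or 3. PSMG3 itself differed by -0.47 ± 0.20 at 24 h and did not pass (adjusted p = 0.0822).

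PSMG1 and PSMG2 form the other pair that builds the alpha ring. PSMG1 measured 12.77, 12.75 and 12.67 in vehicle, 12.75, 12.70 and 12.68 at 90 min, 12.40, 12.41 and 12.44 at 4 h, and 11.37, 11.40 and 11.21 at 24 h. The 90 min arrays overlapped vehicle and both later groups lay below, by -0.31 ± 0.05 at 4 h (adjusted p = 0.00131) and -1.40 ± 0.05 at 24 h (adjusted p = 1.65e-09, a 2.64-fold fall). PSMG2 measured 12.32, 12.44 and 12.36 in vehicle, 12.36, 12.18 and 12.25 at 90 min, 12.25, 11.95 and 12.13 at 4 h, and 12.34, 12.41 and 12.23 at 24 h. Its 24 h arrays overlapped vehicle, with a difference of -0.05 ± 0.08 (adjusted p = 0.606). It was called lower at 4 h alone, by -0.26 ± 0.08 (adjusted p = 0.029), a call lost without replicate 2 of that group and without vehicle replicate 2 or 3. The partners of each pair therefore had unlike values at 24 h; the difference between partners was not tested.

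Of the chaperones that help build the cap base, PSMD9 measured 9.41, 9.53 and 9.46 in vehicle, 9.70, 9.64 and 9.55 at 90 min, 9.70, 9.30 and 9.55 at 4 h, and 10.01, 10.11 and 9.77 at 24 h. Its 24 h arrays were above all others, by 0.50 ± 0.11 against vehicle (adjusted p = 0.00251, a 1.41-fold rise). PSMD10, also known as the oncoprotein gankyrin, averaged 10.47 at 90 min, 10.45 at 4 h and 10.42 at 24 h, against 10.80 in vehicle. It fell by 0.33 ± 0.06 at 90 min (adjusted p = 0.00381), by 0.35 ± 0.06 at 4 h (adjusted p = 0.00117) and by 0.38 ± 0.06 at 24 h (adjusted p = 0.000267). Its second probe set was also called lower at 90 min, by -0.38 ± 0.06, but differed by only -0.04 ± 0.06 at 24 h (adjusted p = 0.634 over all probe sets). PSMD5, the remaining base chaperone, fell by 0.34 ± 0.11 at 24 h (adjusted p = 0.0346). That call was lost under 8 alternatives, among them without any 1 vehicle or 24 h replicate (adjusted p = 0.0535 to 0.271).

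Over time, the members fell into a few courses by their calls against vehicle. In all, 21 were called lower at 24 h and at no earlier time, 5 were called higher at 90 min and lower at 24 h, and 5 were called lower at 4 h and 24 h (PSMB5, PSMB8, PSMD12, PSME4 and PSMG1). PSMB9, PSME1, PSMG4 and PSMD10 were called lower at all 3 times. PSMA8, PSMC1, PSMD4, PSMF1 and PSMG3 were called at none. Of these, the F test over all groups called PSMC1 (adjusted p = 0.0104) and PSMG3 (adjusted p = 0.0282). At 24 h against vehicle, PSMC1, PSMF1 and PSMG3 were called lower under 3 alternatives each. These comparisons share the vehicle arrays. The courses follow the calls of the fit reported. PSMD11 and PSMA1, counted as lower at 24 h alone, were called higher at 90 min under 7 and 5 alternatives. The share of all genes with each course was not counted, so the courses cannot be set against other genes.

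Genes that act with the proteasome without a PSM symbol were counted from fixed lists. Of 11 measured partners, 2 rose (18.2%) and 6 fell (54.5%) at 24 h, with a median of -0.29. The shares over all genes were 17.8% higher and 18.9% lower, and over genes averaging 4 or more 25.9% and 37.1%. The share of partners that rose was thus near that of all genes in the fit reported and below that of genes averaging 4 or more. The share that fell was above both, though over 11 genes only. PAAF1, an ATPase-binding chaperone of the cap, averaged 7.55 at 24 h, against 8.95 in vehicle, a difference of -1.39 ± 0.15 (adjusted p = 8.1e-06), after -0.68 ± 0.15 at 90 min and -1.33 ± 0.15 at 4 h. UCHL5 and USP14, the deubiquitinases that dock on the cap, fell by 1.19 ± 0.08 and 0.45 ± 0.07 at 24 h, with adjusted p of 8.99e-08 and 0.000175. AKIRIN2, which carries proteasomes into the nucleus, averaged 9.30 at 24 h, against 8.28 in vehicle, and rose by 1.02 ± 0.12 (adjusted p = 2.43e-05). POMP, the maturation factor of the core, differed by 0.12 ± 0.05 at 24 h and did not pass (adjusted p = 0.0795), and it was called higher at 4 h by 0.17 ± 0.05 (adjusted p = 0.0263). ADRM1, the receptor that anchors UCHL5, and SEM1, a small lid subunit, differed at 24 h by 0.02 ± 0.16 (adjusted p = 0.925) and -0.00 ± 0.07 (adjusted p = 0.957).

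Of the NFE2L1 pathway, 5 of 8 listed genes were measured, and 2 rose and 1 fell at 24 h, or 40% and 20%, against 17.8% and 18.9% of all genes. With so few genes these shares say little about the list. NFE2L1 differed by 0.21 ± 0.10 (adjusted p = 0.102). MAFF, a small MAF protein that pairs with NFE2L1 and its relatives on response elements, averaged 6.94 in vehicle, 8.54 at 90 min, 9.53 at 4 h and 10.40 at 24 h. It was higher at each later time without overlap, by 1.59 ± 0.08 at 90 min (adjusted p = 1.46e-07) and 3.45 ± 0.08 at 24 h (adjusted p = 2.16e-11). NGLY1, the deglycosylase that processes NFE2L1, fell by 0.56 ± 0.08 at 4 h (adjusted p = 0.000222) and by 0.48 ± 0.08 at 24 h (adjusted p = 0.000278). Of the 7 measured ubiquitin genes and shuttle factors (of 11 listed), 2 rose (28.6%) and 4 fell (57.1%) at 24 h, against 25.9% and 37.1% of genes averaging 4 or more. RAD23B and UBQLN4, which carry ubiquitinated proteins to the proteasome, fell by 0.72 ± 0.07 (adjusted p = 6.22e-06) and 0.97 ± 0.13 (adjusted p = 4.52e-05), and ZFAND5, an activator of the particle, rose by 0.81 ± 0.07 (adjusted p = 7.1e-07).

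Class I antigen processing, which uses the peptides that the immunoproteasome makes, gave other values. Of 8 measured genes (of 9 listed), 6 rose and 1 fell at 24 h, with a median of 0.58, while none was called at 90 min and 1 fell at 4 h. The 75% higher and 12.5% lower at 24 h stood against 17.8% and 18.9% of all genes, or 25.9% and 37.1% of those averaging 4 or more, and the 12.5% lower at 4 h was under the 16.6% of all genes. The interferon-responsive regulators IRF1 and NLRC5 rose by 1.38 ± 0.18 (adjusted p = 4.89e-05) and 0.98 ± 0.15 (adjusted p = 0.000222). The peptide transporter genes lie between and beside the immunoproteasome genes on chromosome 6 (GRCh38.p14): TAP2 from 32821831 to 32838739, PSMB8 from 32840717 to 32844679, TAP1 from 32845209 to 32853704 and PSMB9 from 32854192 to 32859851. TAP1, which starts beside PSMB9 and runs the opposite way, averaged 8.87 at 24 h, against 8.21 in vehicle, and rose by 0.66 ± 0.14 (adjusted p = 0.00174). TAP2 averaged 7.67 at 24 h, against 8.81 in vehicle, and fell by 1.14 ± 0.12 (adjusted p = 6.72e-06). Of these 4 neighbours, TAP1 was thus called higher at 24 h, and PSMB8, PSMB9 and TAP2 were called lower.

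**Figure D4:**
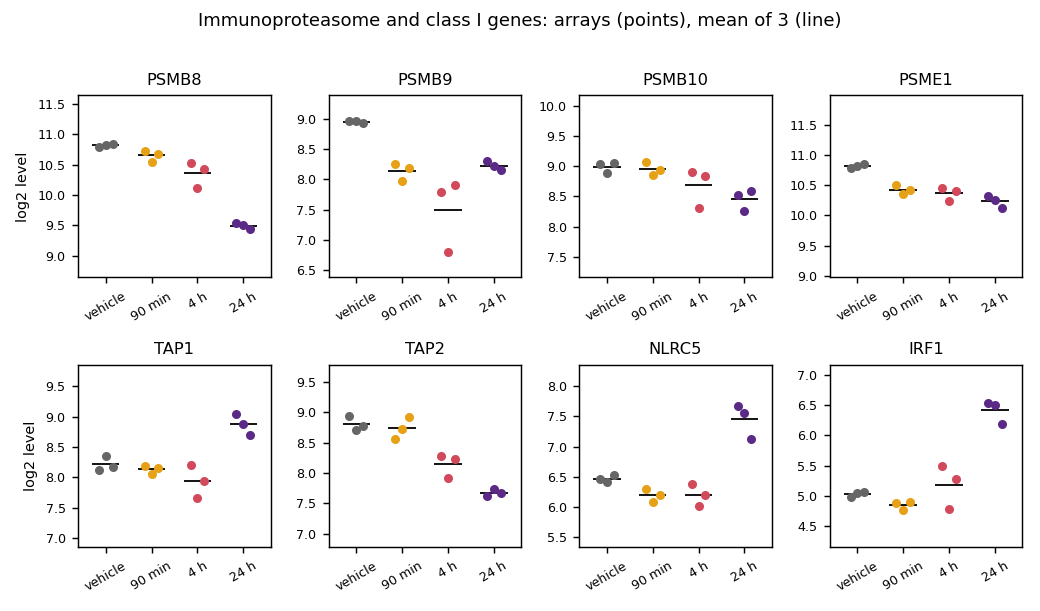
Log2 signal (vertical axis) on each array of PSMB8, PSMB9, PSMB10, PSME1 and the class I genes TAP1, TAP2, NLRC5 and IRF1, 1 panel per gene, with vehicle, 90 min, 4 h and 24 h along the horizontal axis, points for arrays and a line at the mean of 3. PSMB9 is lowest at 4 h and PSMB8 at 24 h, while TAP1, NLRC5 and IRF1 are highest at 24 h.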

How the data were processed

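Total RNA of 12 U937 samples was measured on expression arrays. The authors deposited log2 values per probe set made with GCRMA in Affymetrix Expression Console, per the submitters' processing notes. GCRMA corrects background by probe sequence and normalizes quantiles, which draws arrays toward like distributions. The deposited values still differed between arrays, with medians from 2.84 to 3.10 and upper quartiles from 6.20 to 6.66. Versions are not given in the sources used here. The deposited log2 values were used as they are.

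Of 54675 probe sets, 41097 had 1 gene symbol, 1801 several and 11777 none; 41043 of those with 1 symbol matched RefSeq by gene identifier. Where a gene had several probe sets, as did 22 members, the brightest by its mean was used. All 12 arrays entered 1 linear model with moderated variances (R 4.3.3 and limma 3.58.1; eBayes used a trend of variance on signal), with 8 residual degrees of freedom, and p-values were adjusted over all 19775 genes of a comparison by Benjamini and Hochberg. Calls required an adjusted p below 0.05. The number of arrays limits the precision. On simulated data of 19775 genes, 91 of 100 genes changed 2-fold were recovered at 24 h against vehicle, and 14 of 205 called genes were unchanged. The simulation used independent normal noise and changed 100 genes 2-fold and 100 genes 4-fold, all with a mean above 4. Far more genes were called in the real data, and most members changed by less than 2-fold. These figures therefore do not say how many such changes were missed or how many calls are false.

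Members, lists and tests were chosen with earlier results of these data known. Values per array are given for fixed members and, for each of 4 role groups, the 3 with the largest called difference from vehicle; further members are given by difference. Alternatives were a constant prior spread, removal of dim genes, the mean of probe sets or each probe set alone, quantile normalization, subtraction of array medians, array weights, a replicate block, a fit on just the 6 arrays compared, and leaving out single arrays. Same-numbered vehicle and 90 min arrays deviated together (correlations 0.218, 0.229 and 0.128 of their deviations from group means, and -0.266 to 0.086 for differently numbered ones). In no other groups did every same-numbered pair exceed 0.1, though those of 90 min and 4 h stood at 0.048, 0.369 and 0.304. The fit reported used no pairing, and the replicate block put the number over all 4 groups. The labels do not say what a number marks. Figures were drawn with matplotlib 3.10.9.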

Additional observations from a re-analysis of the deposited data

How the results depend on the processing

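Of the 36 calls at 24 h against vehicle, 24 held under every alternative, as did 6 of 10 at 4 h and 2 of 9 at 90 min (PSMD1 and PSMD10); the calls that did not hold lost significance without a change of sign in the comparisons with vehicle. Against vehicle at 90 min, the number of members called higher was 10 with quantile normalization, 2 with array medians subtracted, 13 with array weights and 11 with the 6 arrays alone. The number of members called lower was 1 with array medians subtracted. Of all 19775 genes, these settings called 1102, 610, 2160 and 1004 higher, and array medians subtracted called 622 lower. The fit reported called 796 higher and 1111 lower. At 4 h, the number of members called higher was 1 with the mean of probe sets, 4 with quantile normalization and 9 with array weights. It was 0 in the fit reported. Of all 19775 genes, these settings called 5453, 2289 and 8612 higher at 4 h, and the fit reported called 4735. The number of members lower at 4 h against 90 min was 4 with the 6 arrays alone. The number higher at 24 h against 4 h was 1 with the mean of probe sets, array medians subtracted and the 6 arrays alone. With single arrays left out, the counts ranged as follows: at 90 min 1 to 10 higher and 2 to 4 lower; at 4 h 0 to 3 higher and 7 to 19 lower; at 24 h 1 higher throughout and 28 to 38 lower; at 4 h against 90 min 5 to 16 lower and 0 higher; and at 24 h against 4 h 1 to 3 higher and 21 to 34 lower. One difference turned: PSMG4 at 4 h against 90 min was 0.041 with the mean of probe sets (adjusted p = 0.773) and -0.65 as reported. That mean takes in its 4 other probe sets, which were dim. The cause of the turn was not tested. Beyond vehicle and 90 min, in no groups did every same-numbered pair of arrays exceed a correlation of 0.1. Same-numbered samples correlated at -0.13 to 0.37 over all 18 pairs, and others at -0.34 to 0.25 over 36. The replicate block gave 6 members higher and 4 lower at 90 min, 1 higher (PSMC3) and 13 lower at 4 h (PSMB3, PSMB10 and PSMD6 in addition), 35 lower at 24 h, 10 lower at 4 h against 90 min (PSMC2, PSMD11 and PSMD14 in addition) and 26 lower at 24 h against 4 h (PSMD14 in addition). It removed no call. Dim probe sets such as that of PSMA8 limit what can be seen.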

Other observations

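The other probe sets of the members offer a second reading of the same RNA. There were 39 of them for 22 members, and 28, of 17 members, had a mean of at least 4. At 24 h against vehicle, 16 of these 28 were called lower and none higher (all probe sets fitted with limma), 26 had the same sign as the probe set reported for the gene, and none was called in the opposite direction. At 90 min, 4 were called higher and 2 lower. At 4 h, 4 were called higher and 5 lower. The shares called over all probe sets of this fit were not counted, so these counts cannot be set against them.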
